A study of Mus musculus with 55 samples.

Results

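Wnt ligands and R-spondins were followed through the sorted cell populations of mouse liver as a set of 10 genes: Wnt2, Wnt9b, Wnt4, Wnt5a, Wnt2b, Wnt11, Rspo1, Rspo2, Rspo3 and Rspo4. They were chosen by symbol, as 10 of the 24478 symbols in the deposited table, and a symbol with several transcript rows is represented by the row whose mean over the 55 libraries was highest. RNA sequencing had been run on 10 populations of C57B/L6 liver, sorted by FACS into TRIzol, and gave 27 libraries of normal and 28 of partially hepatectomised liver (PH, partial hepatectomy, the surgical removal of liver lobes). No transgene, knockout or drug is given in the labels for either treatment. The time between surgery and sorting, the animals behind each library and any batch are not given in the labels, so every p-value below measures the spread between these libraries, which may be technical.

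The populations were biliary epithelial cells (BEC), clonal biliary epithelial cells (cBEC), non progenitor ducts (NPD), hepatocytes (HC), Thy1 cells, hepatic stellate cells (HSC), endothelial cells (EC), liver sinusoidal endothelial cells (LSEC), Kupffer cells (KC, the resident macrophages) and blood cells. The numbers of normal and PH libraries were 3 and 5 for LSEC, 2 and 3 for EC, for HSC and for KC, and 2 and 2 for NPD, for Thy1 and for blood. BEC and cBEC had 4 normal and 2 PH libraries each, and HC had 4 of both kinds. The library titled PH cBEC 1 carries a treatment tag of normal and was kept as titled. Levels are FPKM (fragment counts scaled to transcript length and to library size), so they can be compared between genes, and the read depth behind them is unknown.

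Wnt proteins are secreted lipid-modified ligands that bind Frizzled receptors with an LRP5 or LRP6 co-receptor and, in the canonical branch, stabilize beta-catenin. R-spondins bind LGR receptors and the ubiquitin ligases ZNRF3 and RNF43, which otherwise remove Frizzled from the cell surface, and so strengthen a Wnt signal without starting one. In liver, Wnt2, Wnt9b and Rspo3 are known as products of endothelial cells near the central vein and as regulators of the pericentral hepatocyte programme, while Wnt5a and Wnt11 are known mainly for beta-catenin-independent signalling.

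The populations sorted as labelled by most of their defining genes, with exceptions that touch the values below. The sum of FPKM per library lay between 960918 and 1203197 in HC and between 624726 and 848630 in the other sorts. Upper quartiles of values above 0 were 12.7 to 15.3 FPKM in HC and 21.0 to 32.1 FPKM elsewhere. All 6 hepatocyte markers, Alb among them, were listed at 0 in every normal BEC and NPD library. Replicate pairs of HC shared 94 to 234 equal values above 0, and replicate pairs of the other sorts shared none. Whether HC columns were processed apart is not given in the labels, and these differences limit comparison of HC with other sorts. Values of log2(FPKM + 1) correlated between replicates at 0.919 to 0.996. Both NPD groups carried all 6 mesothelium markers (Msln, Upk3b, Wt1, Lrrn4, Gpm6a, Krt19) at 1 FPKM or more in every library, beside 5 of 6 duct markers; Krt19 is in both lists. Thy1 libraries held all 6 mesothelium and all 6 endothelial markers as well as those of their own list. Normal KC libraries held all 6 LSEC markers at a summed 3329 to 4606 FPKM. PH blood libraries held Kupffer markers at a summed 9266 to 16278 FPKM, against 465 to 752 in normal blood, while the blood list went from 4146 to 4342 FPKM in normal blood to 530 to 983 FPKM in PH blood. Both PH blood libraries thus stood apart from their label by these lists.

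Members with like patterns are shown first by the DNA before their start sites. RefSeq promoter entries of GRCm38.p6 were matched for 7 of the 10 genes, and the 250 bases before the start site are printed 5′ to 3′ for the genes that were highest in the sinusoidal sort (Wnt2, Wnt9b) and for those that were highest in the NPD sort (Rspo1, Wnt2b and the upstream start of Wnt11). Wnt5a, Rspo2 and Rspo3 had no entry. Capitals mark matches on either strand to a TATA box (TATAAA), a TCF/LEF motif (CTTTGA or CTTTGT, the core bound by the transcription factors that act with beta-catenin) or a KLF-type motif (CACCC).
Wnt2, chr6:18030446-18030695, minus strand: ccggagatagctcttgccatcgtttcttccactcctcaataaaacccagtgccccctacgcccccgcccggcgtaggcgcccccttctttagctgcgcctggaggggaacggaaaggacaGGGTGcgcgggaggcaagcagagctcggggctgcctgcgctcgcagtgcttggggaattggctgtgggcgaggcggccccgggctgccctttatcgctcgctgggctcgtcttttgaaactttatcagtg
Wnt9b, chr11:103749822-103750071, minus strand: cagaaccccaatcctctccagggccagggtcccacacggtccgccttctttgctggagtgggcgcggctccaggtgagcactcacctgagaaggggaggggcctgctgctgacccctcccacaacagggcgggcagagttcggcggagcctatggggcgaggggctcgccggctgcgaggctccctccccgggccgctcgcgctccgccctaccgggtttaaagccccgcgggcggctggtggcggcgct
Rspo1, chr4:124986180-124986429, plus strand: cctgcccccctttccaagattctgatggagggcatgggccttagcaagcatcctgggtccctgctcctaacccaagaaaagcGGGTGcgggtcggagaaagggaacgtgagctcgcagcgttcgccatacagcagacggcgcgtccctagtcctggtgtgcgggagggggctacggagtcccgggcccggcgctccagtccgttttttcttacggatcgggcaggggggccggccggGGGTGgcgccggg
Wnt2b, chr3:104961710-104961959, minus strand: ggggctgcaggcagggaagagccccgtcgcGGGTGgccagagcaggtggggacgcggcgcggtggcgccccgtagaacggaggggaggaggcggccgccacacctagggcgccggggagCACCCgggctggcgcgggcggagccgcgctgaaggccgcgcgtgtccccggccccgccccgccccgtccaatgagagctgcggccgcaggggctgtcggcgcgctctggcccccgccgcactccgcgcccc
Wnt11, chr7:98834862-98835111, plus strand: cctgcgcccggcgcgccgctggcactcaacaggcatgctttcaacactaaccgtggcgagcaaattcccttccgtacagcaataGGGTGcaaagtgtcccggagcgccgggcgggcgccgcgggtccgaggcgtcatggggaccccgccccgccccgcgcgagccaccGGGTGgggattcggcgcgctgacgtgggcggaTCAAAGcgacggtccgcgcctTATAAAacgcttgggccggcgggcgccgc

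All 5 windows were richer in G and C than the median of 52.4% over the 32851 windows of the table, at 63.6% for Wnt2, 72.0% for Wnt9b, 66.8% for Rspo1, 80.8% for Wnt2b and 70.8% for Wnt11. The Wnt2 window held 1 CACCC match at position -130 from the start site, and the Wnt9b window held none of the motifs. Rspo1 had CACCC matches at -168 and -13, and Wnt2b at -220 and -131. The Wnt11 window was the only printed one with a TATA box, at -29, and with a TCF/LEF core, at -50. Over all windows, 12.4% held TATAAA, 27.6% a TCF/LEF core and 52.0% CACCC, so CACCC is a common string in such windows. A match describes letters and shows no binding.

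The rows used are RefSeq transcripts on mm9, with starts counted from 1, and each spans its transcript from first to last exon, introns included. Wnt2 lies at chr6:17938940-17980445 on the minus strand, Wnt9b at chr11:103588677-103611135 on the minus strand, and Rspo3 at chr10:29172913-29255673 on the minus strand. Wnt4 lies at chr4:136833550-136855416 and Rspo1 on the same chromosome at chr4:124663674-124686343, both on the plus strand. Wnt2b lies at chr3:104747723-104764627 on the minus strand, Wnt5a at chr14:29324591-29338701 and Wnt11 at chr7:105983622-106003257, both on the plus strand. Rspo2 (chr15:42852341-43002364, minus strand) and Rspo4 (chr2:151668663-151700404, plus strand) complete the set. Wnt5a had 2 rows in the table and Wnt11 had 4, and the other 8 genes had 1 each.

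The 10 genes fell into patterns by where they were highest, plotted by library in the panels of FPKM per gene. Wnt2, Wnt9b and Rspo3 were highest in LSEC after PH, Rspo3 also being high in HSC and Thy1 libraries and Wnt9b in Thy1 libraries. Rspo1, Wnt2b, Wnt5a and Wnt11 were high in the NPD and Thy1 sorts, and Wnt4 in biliary, NPD and stellate sorts. Rspo2, which is a known activator of LGR signalling in other organs, reached at most 0.176 FPKM (normal Thy1 2) and was listed at 0 in 49 of 55 libraries. Rspo4 was listed at 0 in 54 of 55 libraries. Hepatocytes held little of any member: the highest hepatocyte value was 1.33 FPKM, for Wnt2 in PH HC 1, and none of the 10 passed the filter for testing there (at least 1 FPKM in as many libraries as the smaller group has), while 6.19% of all genes tested in hepatocytes were called. The differing scale of the HC columns, given above, limits this comparison with other sorts.

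**Figure D1:**
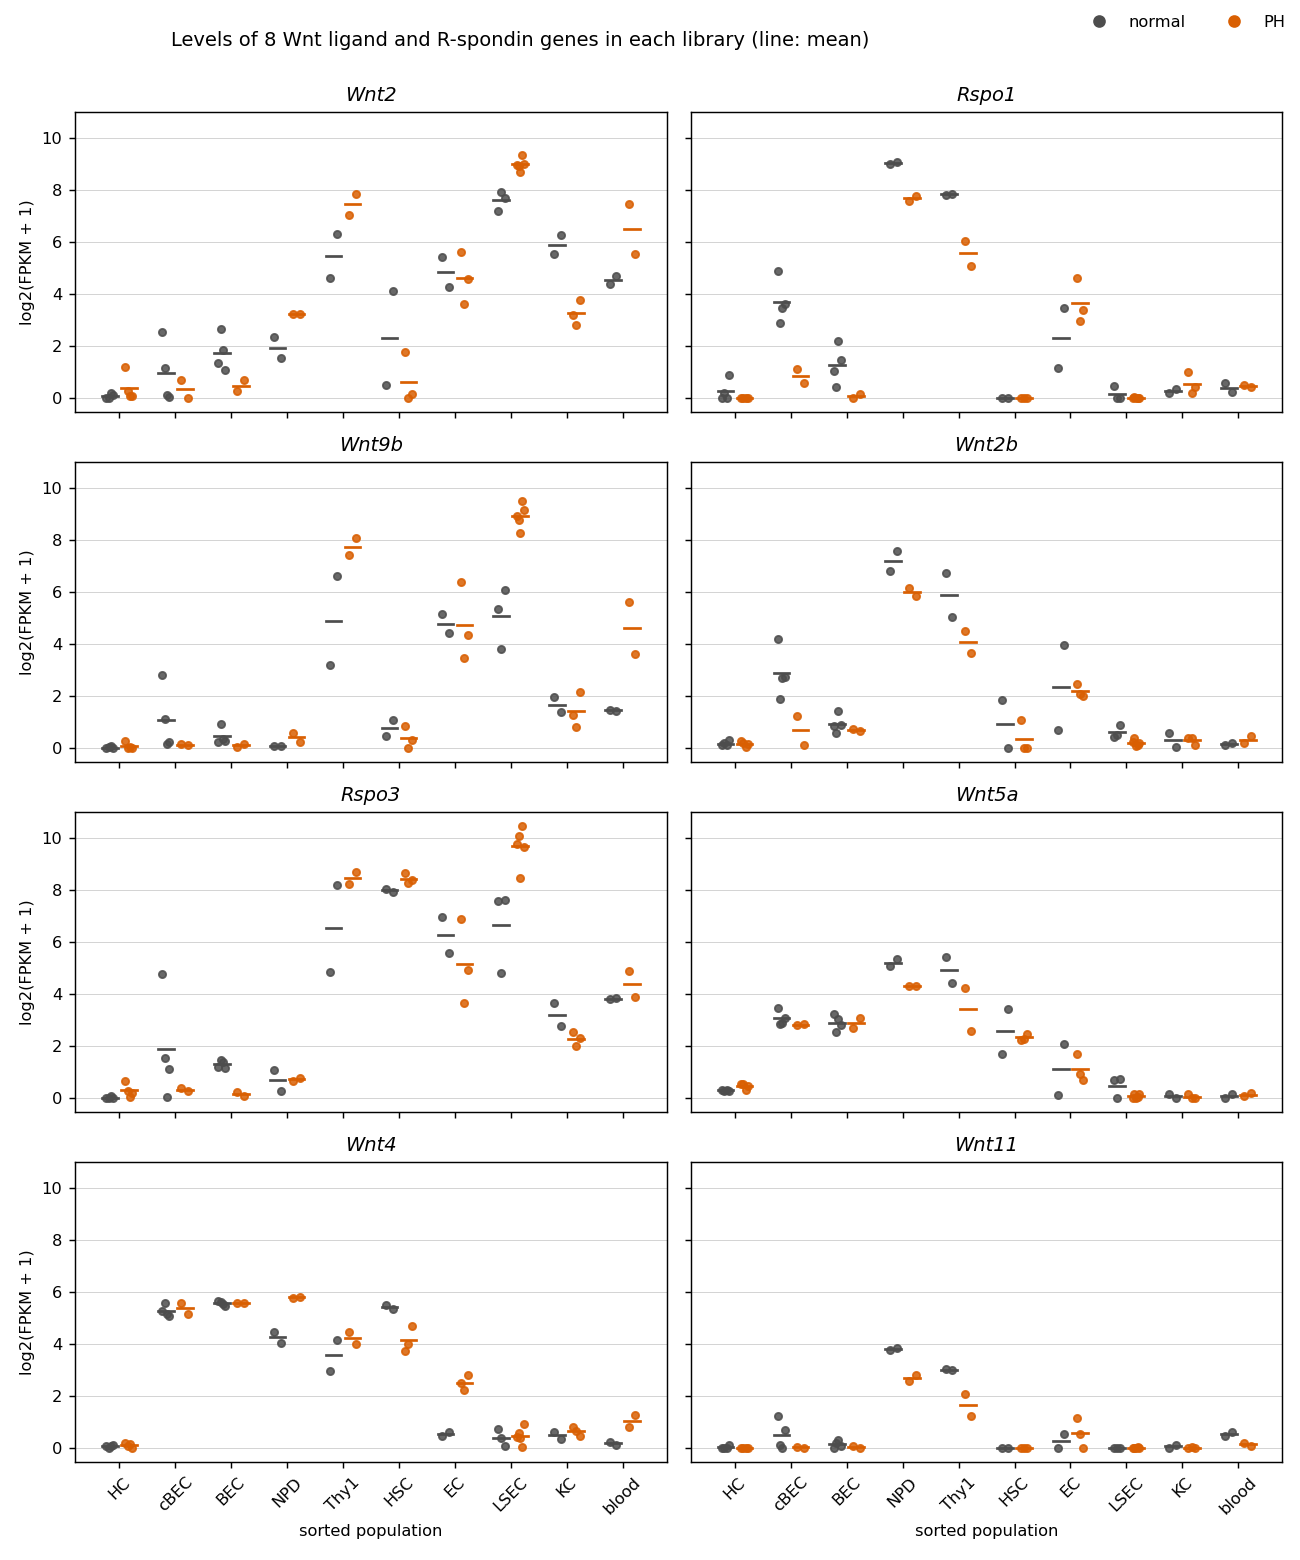
Level of 8 genes as log2(FPKM + 1) (vertical axis) in each of 55 libraries by sorted population (horizontal axis), grey for normal liver and orange for PH; each point is a library and each line a group mean. Wnt2, Wnt9b and Rspo3 reach their highest values in PH LSEC, while Rspo1, Wnt2b and Wnt11 are highest in NPD in both treatments.

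Wnt2 was a sinusoidal endothelial transcript in both treatments and was higher after PH. Normal LSEC libraries held 144, 243 and 203 FPKM, and PH LSEC libraries 494, 488, 408, 644 and 512 FPKM. All 5 PH libraries lay above all 3 normal ones, and the mean was 2.59 times the normal mean. The change on log2(FPKM + 1) was 1.38 ± 0.22 (SE, limma adjusted p = 0.00594). Within each treatment, every LSEC library exceeded every library of the 9 other populations, the nearest being 78.1 FPKM in normal Thy1 2 and 230 FPKM in PH Thy1 2.

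Wnt9b changed most in the same sort. Normal LSEC libraries held 39.5, 13.0 and 65.8 FPKM, and PH LSEC libraries 482, 430, 309, 711 and 561 FPKM. The groups did not overlap, and the PH mean of 499 ± 150 FPKM (SD, n = 5) was 12.6 times the normal mean of 39.4 ± 26.4 FPKM (SD, n = 3). The change was 3.84 ± 0.45 (SE, adjusted p = 0.00226). In normal liver LSEC was not the clear top source: Thy1 libraries held 8.22 and 96.0 FPKM and EC libraries 34.5 and 20.5 FPKM, and all 3 populations overlapped. After PH the lowest LSEC library, at 309 FPKM, lay above the higher Thy1 library, at 266 FPKM.

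Rspo3, the R-spondin known from pericentral endothelium, also rose in LSEC, with wide spread among the normal libraries. They held 190, 27.0 and 192 FPKM, normal LSEC 2 being far below the others, and PH libraries held 865, 1084, 352, 1406 and 810 FPKM. Every PH library exceeded every normal one, the ratio of means was 6.63, and the change was 3.03 ± 0.67 (SE, adjusted p = 0.0277), or 2.10 without normal LSEC 2. The call was lost when normal LSEC 1 (0.0525) or PH LSEC 1 (0.0685), 2 (0.0538), 4 (0.0581) or 5 (0.0582) was left out, and with no filter on low values (0.0594).

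So 3 of the 3 members tested in LSEC were called after PH, all higher, where 8.46% of the 11501 genes tested were called in either direction and 4.15% were called higher. Wnt2 kept the call in every fit that left out 1 library (highest adjusted p 0.0377), as did Wnt9b (0.0146), and Wnt2 lost it in a single fit of all 20 groups (adjusted p = 0.118). With the replicate number as a block, all 3 calls were lost (limma adjusted p 0.163 for Wnt2, 0.0995 for Wnt9b and 0.269 for Rspo3). In these bulk sorts, fewer cells of a type and less RNA per cell cannot be told apart. Central-vein endothelium markers (Kit, Cdh13, Thbd, Fabp4, Lhx6) moved with the 3 genes: 5 of 5 were at 1 FPKM or more in every LSEC library, at a summed 1477 to 2610 FPKM in normal and 3945 to 8403 FPKM in PH libraries. Portal endothelium markers (Dll4, Efnb2, Ltbp4, Msr1, Adgrg6, Ntn4) moved the other way, 6 of 6 being detected in every library, at a summed 857 to 1855 FPKM in normal and 183 to 465 FPKM in PH libraries. The general endothelial list had overlapping sums, 3394 to 3998 and 3442 to 4061 FPKM. The LSEC list, with 6 of 6 detected in every library, went from a summed 5185 to 10005 FPKM in normal to 1794 to 5853 FPKM in PH libraries, which overlap. The part of these shifts in the 3 results was not tested.

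**Figure D2:**
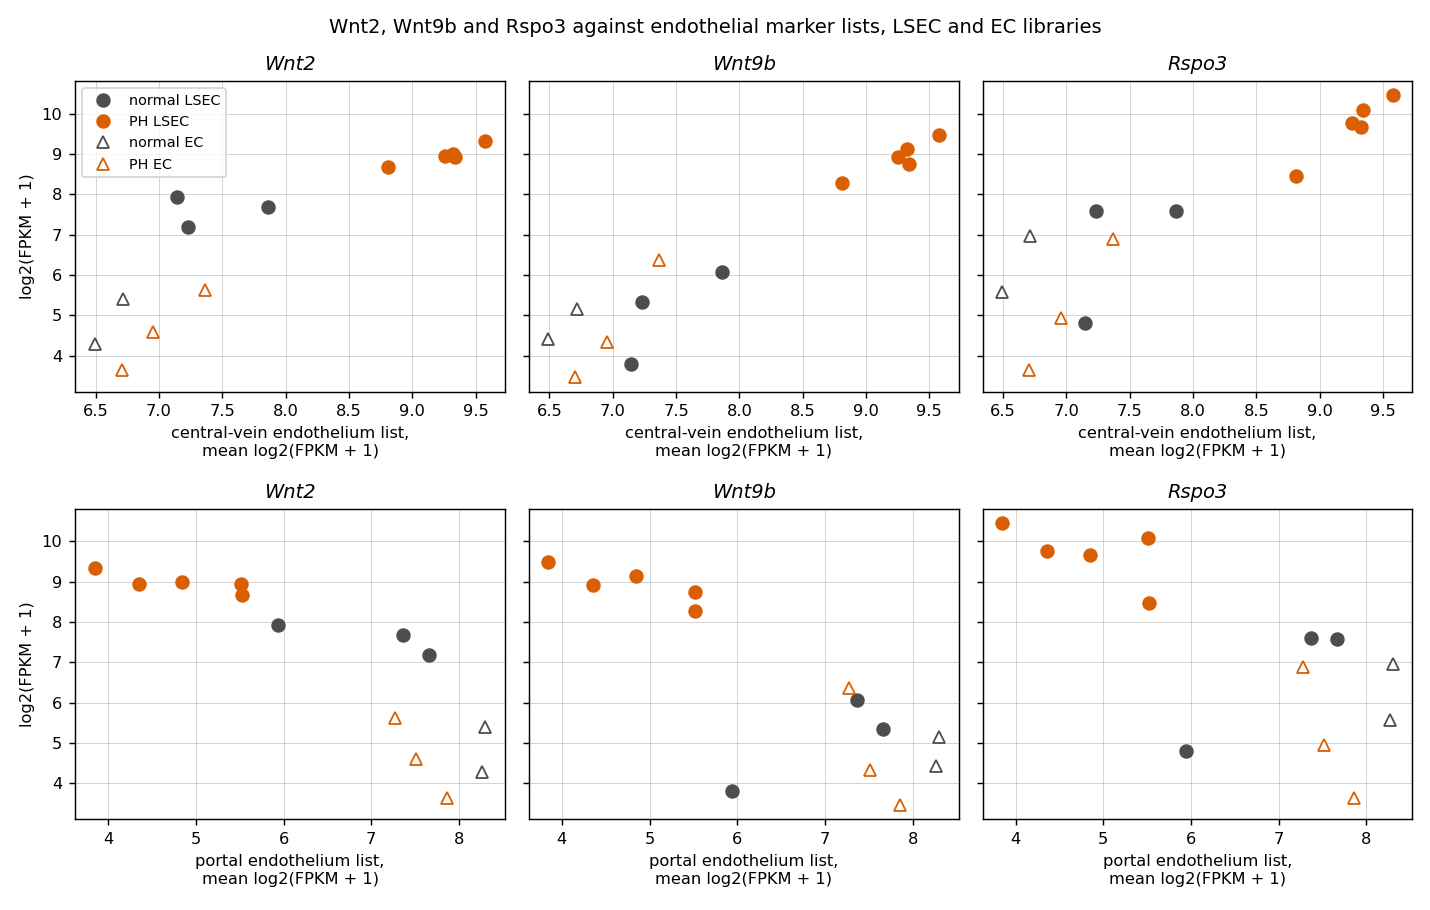
Wnt2, Wnt9b and Rspo3 as log2(FPKM + 1) (vertical axis) against the mean log2(FPKM + 1) of the central-vein list (top row) or portal list (bottom row) in 13 LSEC and EC libraries; filled circles are LSEC, open triangles EC, grey normal and orange PH. The 5 PH LSEC libraries lie at 8.81 to 9.58 on the central-vein list, above all other libraries, and at 3.85 to 5.52 on the portal list, below all others.

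The EC sort showed no such rise. Wnt2 was at 41.4 and 18.6 FPKM in normal EC and at 48.4, 11.5 and 23.2 FPKM in PH EC. Wnt9b was at 34.5 and 20.5 FPKM and then at 81.6, 10.00 and 19.2 FPKM. Rspo3 was at 124 and 46.7 FPKM and then at 118, 11.5 and 29.7 FPKM. Groups overlapped for all 3 genes, and PH EC 1 was the highest PH library for each, as it was on the central-vein list (7.36 against 6.71 and 6.95).

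None of the 7 members tested in EC was called after PH, where 0.0249% of genes were called. Wnt4 had the smallest p of these members. Its libraries held 0.391 and 0.552 FPKM in normal EC and 4.61, 3.76 and 6.03 FPKM in PH EC, without overlap (1.96 ± 0.32, SE, adjusted p = 0.181). Both normal EC libraries were under 1 FPKM, so Wnt4 passed the filter only through PH EC, which fixed its direction in advance. Rspo1 in the same libraries was at 1.22 and 9.92 FPKM and then at 23.4, 6.88 and 9.47 FPKM, which overlap. Mesothelium markers differed between these libraries too, with a summed 60.4 to 210 FPKM in normal EC (5 of 6 detected in every library) and 173 to 672 FPKM in PH EC (6 of 6). Duct markers did not overlap, at a summed 44.7 to 56.6 FPKM in normal EC (3 of 6 detected in every library) and 166 to 320.1 FPKM in PH EC (4 of 6). Their part in the EC values was not tested.

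Between the endothelial sorts, members were called after PH and not in normal liver. In normal liver 0 of 4 members tested were called between EC and LSEC, where 0.00843% of all genes were called by limma. Wnt2 was at 18.6 and 41.4 FPKM in EC, below all 3 LSEC libraries (-2.75 ± 0.37, SE, adjusted p = 0.151). After PH 6 of 6 were called, where 9.03% of genes were. Wnt2 (-4.36 ± 0.37, SE, adjusted p = 0.000121), Wnt9b (-4.19 ± 0.55, adjusted p = 0.00113) and Rspo3 (-4.52 ± 0.65, adjusted p = 0.00189) were lower in EC. Without PH EC 1 the Wnt9b difference was -5.01 and that of Rspo3 -5.39, and without PH EC 2 they were -3.56 and -3.77. Wnt4 (2.04 ± 0.26, adjusted p = 0.000942), Wnt2b (1.98 ± 0.22, adjusted p = 0.000462) and Rspo1 (3.64 ± 0.33, adjusted p = 0.00015) were higher in EC, without overlap of libraries. In PH LSEC these last genes reached at most 0.921, 0.3 and 0.0401 FPKM. They passed the filter only through the EC libraries, which fixed their direction in advance.

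The difference between the PH responses of EC and LSEC was itself tested in a fit of all groups, in which 0.345% of genes were called. Of 8 members tested, Wnt9b responded less in EC (difference -3.91 ± 0.90, SE, adjusted p = 0.0359) and Wnt4 more (1.89 ± 0.34, adjusted p = 0.00266). Wnt4 stayed under 1 FPKM in every LSEC library, so its difference largely restates the EC change of 1.96, not called in the EC fit. Rspo3 missed the threshold (-4.13 ± 1.09, adjusted p = 0.0908), as did Wnt2 (-1.61 ± 0.90, adjusted p = 0.923). The Wnt9b call was lost without normal EC 1 (adjusted p = 0.276), normal LSEC 1 (0.062) or 2 (0.125), PH EC 2 (0.113) or 3 (0.0888), or PH LSEC 1 (0.0573), 4 (0.0713) or 5 (0.0511), and both calls were lost with a pseudocount of 0.1 (0.281 and 0.0739) or in a fit of the 4 compared groups (0.354 and 0.278). Rspo3 gained a call without normal LSEC 3 (0.0418) or PH EC 1 (0.0215), and Rspo1 without normal EC 2 (0.0252).

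Stellate cells held high levels of Rspo3 and little Wnt2 or Wnt9b. Rspo3 was at 264 and 244 FPKM in normal HSC and at 398, 305 and 332 FPKM in PH HSC, the PH libraries all being the higher ones. The change was 0.43 ± 0.26 (SE, adjusted p = 0.699), so it did not pass the test. In normal liver HSC had the highest mean of Rspo3 (254 FPKM), but normal Thy1 2 was higher, at 294 FPKM. Wnt9b did not exceed 1.12 FPKM in any HSC library. Wnt2 was at 0.442 and 16.2 FPKM in normal HSC, and at 2.42 and 0.115 FPKM in PH HSC 1 and 3, being listed at 0 in PH HSC 2, and normal HSC 2 also carried more of the LSEC list (6.97 against 4.22 in normal HSC 1).

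Wnt4 in stellate cells was at 44.4 and 39.4 FPKM in normal liver and at 12.5, 15.2 and 24.9 FPKM after PH. The groups did not overlap and the PH mean was 0.418 of the normal mean, yet the change missed the threshold in the fit of HSC libraries (-1.27 ± 0.38, SE, adjusted p = 0.457). It was called in a single fit of all 20 groups (adjusted p = 0.000815). In HSC 0 of 5 tested members were called, where 0.00853% of all genes were. The stellate list gave overlapping sums, 12057 to 16101 FPKM in normal and 12460.0 to 19847 FPKM in PH libraries.

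Between HSC and LSEC the members split by gene. In normal liver 3 of 5 were called, where 21.2% of genes were: Wnt2 (-5.28 ± 0.96, SE, adjusted p = 0.0128) and Wnt9b (-4.29 ± 0.67, adjusted p = 0.00731) were lower in HSC and Wnt4 (5.01 ± 0.37, adjusted p = 0.000677) was higher. Wnt4 and Wnt5a were at most 0.663 and 0.662 FPKM in normal LSEC and passed the filter only through HSC, which fixed their direction in advance. Rspo3 (1.33 ± 0.85, adjusted p = 0.316) and Wnt5a (2.09 ± 0.63, adjusted p = 0.0639) missed the threshold. The Wnt2 difference was -7.07 without normal HSC 2 and -3.49 without normal HSC 1, and its call was lost without normal LSEC 3 (adjusted p = 0.0557). The Wnt5a difference was 2.96 without normal HSC 1, a fit that left 1 HSC library.

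After PH 5 of 5 were called, where 35.3% of genes were. Wnt2 (-8.34 ± 0.37, SE, adjusted p = 2.49e-07) and Wnt9b (-8.52 ± 0.29, adjusted p = 1.05e-07) were lower in HSC, and Wnt4 (3.67 ± 0.31, adjusted p = 8.42e-06) and Wnt5a (2.26 ± 0.21, adjusted p = 1.99e-05) were higher. Wnt9b reached at most 0.804 FPKM in PH HSC, and Wnt4 and Wnt5a at most 0.921 and 0.11 FPKM in PH LSEC. Each of these passed the filter only through the other sort, which largely set its direction in advance. Rspo3 was lower in HSC (-1.26 ± 0.39, adjusted p = 0.0306), although PH LSEC 3, at 352 FPKM, lay within the HSC range of 305 to 398 FPKM. That call was lost without any 1 of the 3 PH HSC libraries (adjusted p 0.0546 to 0.0818) or without PH LSEC 1, 2, 4 or 5 (0.0562 to 0.0623), and it was lost with no filter (0.0638) and in a single fit of all 20 groups (0.132). In the test of the responses themselves, 3 of 8 members were called, where 6.26% of genes were. Wnt2 (-3.06 ± 0.90, adjusted p = 0.0331), Wnt9b (-4.23 ± 0.90, adjusted p = 0.00243) and Wnt4 (-1.34 ± 0.34, adjusted p = 0.0116) responded lower in HSC than in LSEC, and Rspo3 did not pass (-2.59 ± 1.09, adjusted p = 0.167). Since Wnt4 was under 1 FPKM in every LSEC library, its difference largely restates the HSC change of -1.27, not called in the HSC fit. Without normal HSC 2 the Wnt2 difference was -1.27 (adjusted p = 0.479) and without normal HSC 1 it was -4.85, and its call was also lost without normal LSEC 1 (0.0798), PH LSEC 4 (0.0513), PH HSC 2 (0.098) or PH HSC 3 (0.0659). The Wnt2 and Wnt4 calls were lost with a pseudocount of 0.1 (0.0888 and 0.21) and in a fit of the 4 compared groups (0.187 and 0.232).

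Wnt2 in the Kupffer sort fell after PH. Its libraries held 45.2 and 75.8 FPKM in normal KC and 8.19, 6.03 and 12.5 FPKM in PH KC, without overlap (-2.64 ± 0.35, SE, adjusted p = 0.00439). It was 1 of 3 members called, where 36.8% of genes were called in KC and 20.1% were called lower, and the call was lost without normal KC 2 (adjusted p = 0.0511). Rspo3 was at 11.5 and 5.90 FPKM in normal and at 4.85, 2.996 and 3.95 FPKM in PH KC and did not pass (adjusted p = 0.0696). LSEC markers moved with Wnt2: 6 of 6 were detected in every KC library, at a summed 3329 to 4606 FPKM in normal and 278 to 509 FPKM in PH libraries. Kupffer markers went from a summed 11097 to 12409 FPKM to 26933 to 28268 FPKM. Their part in the Wnt2 result was not tested.

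In the blood sort Wnt2 and Wnt9b were called higher after PH. Wnt2 was at 20.1 and 25.0 FPKM in normal and at 174 and 45.4 FPKM in PH blood (1.95 ± 0.65, SE, adjusted p = 0.0499), and Wnt9b at 1.77 and 1.72 FPKM and then at 47.5 and 11.2 FPKM (3.15 ± 0.67, adjusted p = 0.0134). PH blood 1 was the higher library for both genes. Rspo3, at 13.1 and 13.3 FPKM and then at 28.6 and 13.8 FPKM, did not pass (adjusted p = 0.221). These were 2 of 3 members, where 64.0% of genes were called and 24.3% were called higher, and where the median change of all genes was -0.31. Both calls were lost without normal blood 1 (0.26 for Wnt2, 0.126 for Wnt9b) or 2 (0.209 and 0.124), and Wnt2 was lost with a pseudocount of 0.1 (0.0524), no filter (0.0971) or the rows of a symbol summed (0.0518). Without PH blood 1 the change was 0.99 for Wnt2 and 2.15 for Wnt9b, and without PH blood 2 it was 2.91 and 4.14. Wnt4 reached 1 FPKM in PH blood 2 alone (1.43 FPKM), against 0.191 and 0.0905 FPKM in normal blood. It passed the filter only in fits that left 1 library in a group, and its direction was fixed in advance. Calls of Wnt4 without PH blood 1 and of Rspo3 without PH blood 2 each rest on 1 PH library. LSEC markers, 6 of 6 detected in every library, went from a summed 738 to 832 FPKM in normal to 2580 to 5828 FPKM in PH blood, and their part in these results was not tested.

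**Figure D3:**
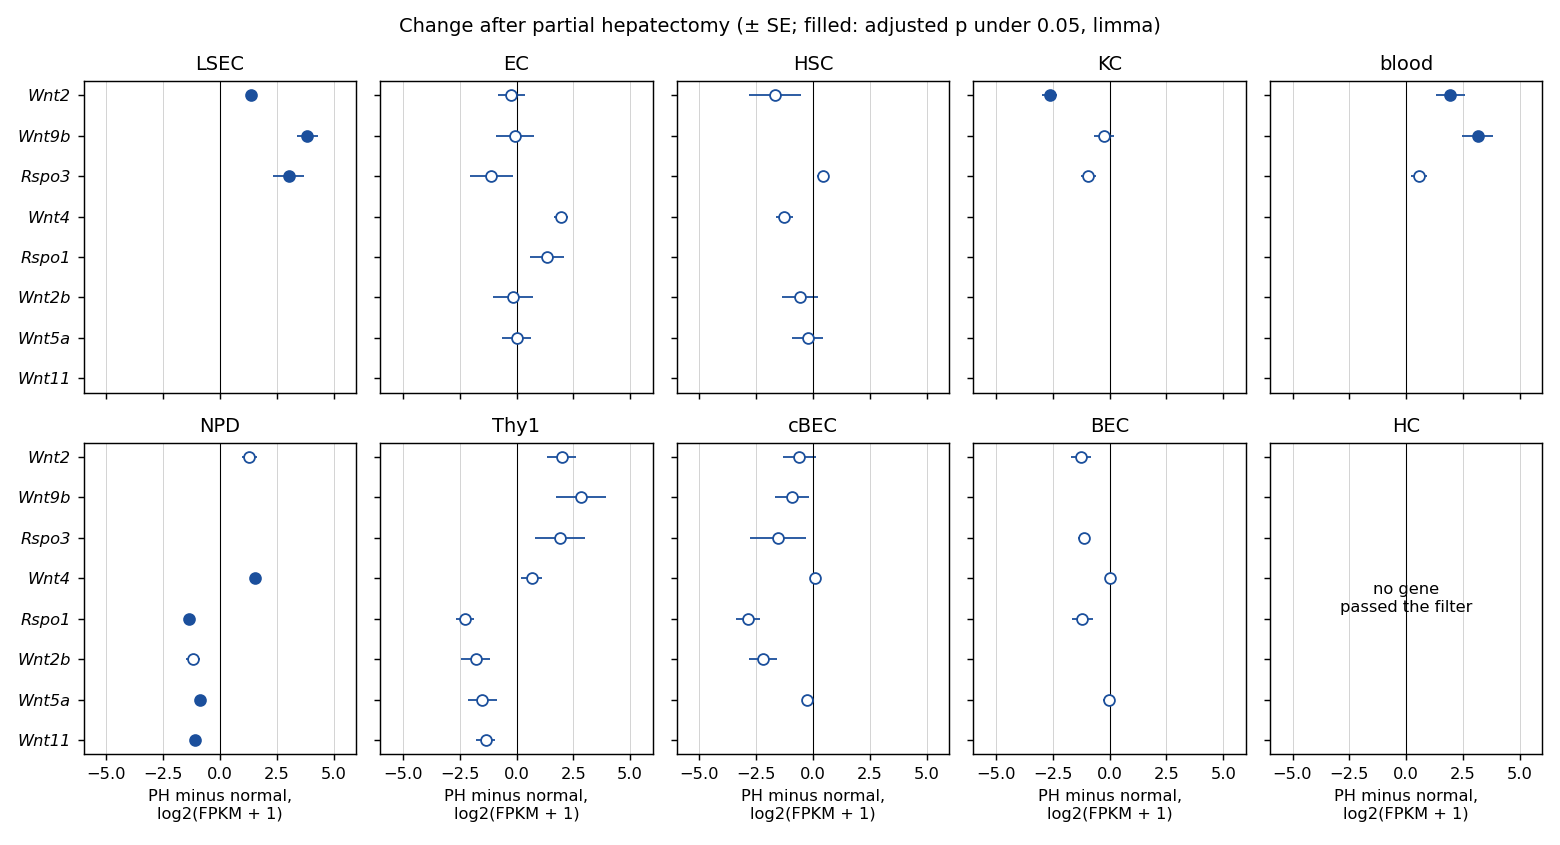
Change after PH on log2(FPKM + 1) (horizontal axis) with its SE for each member tested (vertical axis) in 10 sorted populations; filled points have a limma adjusted p under 0.05 and open points do not. Of 47 tests, 10 were called: 3 in LSEC, 4 in NPD, 2 in blood and 1 in KC.

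Rspo1 was the most abundant member in normal liver by group mean, and its source was the NPD sort. Normal NPD libraries held 509.6 and 540.5 FPKM, and PH NPD libraries 192 and 219 FPKM. The groups did not overlap, the normal mean was 2.56 times the PH mean, and the change was -1.35 ± 0.19 (SE, adjusted p = 0.0169). Within each treatment both NPD libraries exceeded every other library. Thy1 came next, at 223 and 229 FPKM in normal and at 64.3 and 33.2 FPKM after PH, and all other populations had a group mean of at most 14.1 FPKM. In LSEC Rspo1 reached at most 0.387 FPKM, and it was listed at 0 in all 5 HSC libraries.

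Wnt2b, a canonical ligand and the closest relative of Wnt2, followed the same order. It was at 111 and 187 FPKM in normal NPD and at 69.3 and 57.2 FPKM in PH NPD. Although the groups did not overlap, it missed the threshold (-1.18 ± 0.29, SE, adjusted p = 0.0558). The change was -1.56 without normal NPD 1 and -0.80 without normal NPD 2, with 1 normal library left in each fit. All other alternatives lay between these values. Thy1 libraries held 105 and 31.6 FPKM in normal and 21.6 and 11.6 FPKM after PH. Wnt2 itself was low in NPD, at 4.10 and 1.90 FPKM and then 8.41 FPKM in both PH libraries. It missed the threshold (1.29 ± 0.33, SE, adjusted p = 0.0591) and was called with upper-quartile scaling (0.0436). The Wnt2 change was 1.70 without normal NPD 1 and 0.89 without normal NPD 2, and all other alternatives lay between these values.

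The beta-catenin-independent ligands fell in NPD as well. Wnt5a was at 32.6 and 39.3 FPKM in normal and at 19.1 and 18.8 FPKM in PH NPD (-0.88 ± 0.17, SE, adjusted p = 0.0308). Wnt11 was at 12.5 and 13.3 FPKM and then at 4.97 and 5.94 FPKM (-1.11 ± 0.20, adjusted p = 0.0271). Both genes had all PH libraries below all normal ones. Normal Thy1 held Wnt5a at 41.9 and 20.3 FPKM, a range that includes both normal NPD libraries, and Wnt11 at 7.19 and 6.97 FPKM, below both of them. Outside NPD and Thy1 no group mean of Wnt11 exceeded 0.569 FPKM, while Wnt5a stayed at 4.81 to 10.1 FPKM in every BEC and cBEC library.

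Wnt4 was the 1 member called higher in NPD, Wnt2 being higher in both PH libraries without passing. Wnt4 was at 21.0 and 15.5 FPKM in normal and at 53.5 and 55.4 FPKM in PH NPD, 2.98 times as much by mean (1.54 ± 0.19, SE, adjusted p = 0.0143). Of the 6 members tested in NPD, 4 were thus called, where 15.2% of genes were: 1 was higher, where 9.65% of genes were, and 3 were lower, where 5.51% were. None of the 4 kept its call when PH NPD 1 was left out (adjusted p 0.28 for Rspo1, 0.228 for Wnt4, 0.337 for Wnt11 and 0.336 for Wnt5a) or PH NPD 2 (0.293, 0.288, 0.311 and 0.361). A single fit of all 20 groups kept Wnt4 and Wnt11 but not Rspo1 (0.0669) or Wnt5a (0.187), with no filter Wnt5a (0.0644) and Wnt11 (0.0572) were lost, and upper-quartile scaling lost Wnt5a (0.0615).

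Mesothelium markers in the NPD sort went from a summed 6012 to 6568 FPKM in normal to 4472 to 5081 FPKM in PH libraries, 6 of 6 being detected in all, and duct markers from 2570 to 3779 FPKM to 3928 to 4682 FPKM. Other lists were lower in both PH libraries: stellate markers went from a summed 2919 to 3433 FPKM to 1117 to 1200 FPKM, endothelial markers from 166 to 176 FPKM to 53.4 to 60.9 FPKM, and Kupffer markers from 82.4 to 180 FPKM to 4.74 to 8.81 FPKM. The portal fibroblast list went from a mean log2(FPKM + 1) of 5.75 to 6.19 to one of 5.45 to 5.62. Over the 20 group means of log2(FPKM + 1), Rspo1 correlated with the mesothelium list at r = 0.959, Wnt2b at 0.946, Wnt11 at 0.876 and Wnt5a at 0.831, while Wnt4 correlated most with the duct list, at 0.760. With the portal fibroblast list Rspo1 correlated at 0.894, Wnt2b at 0.886 and Wnt11 at 0.848. These are descriptions over group means that share libraries. The part of these lists in the NPD changes was not tested.

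**Figure D4:**
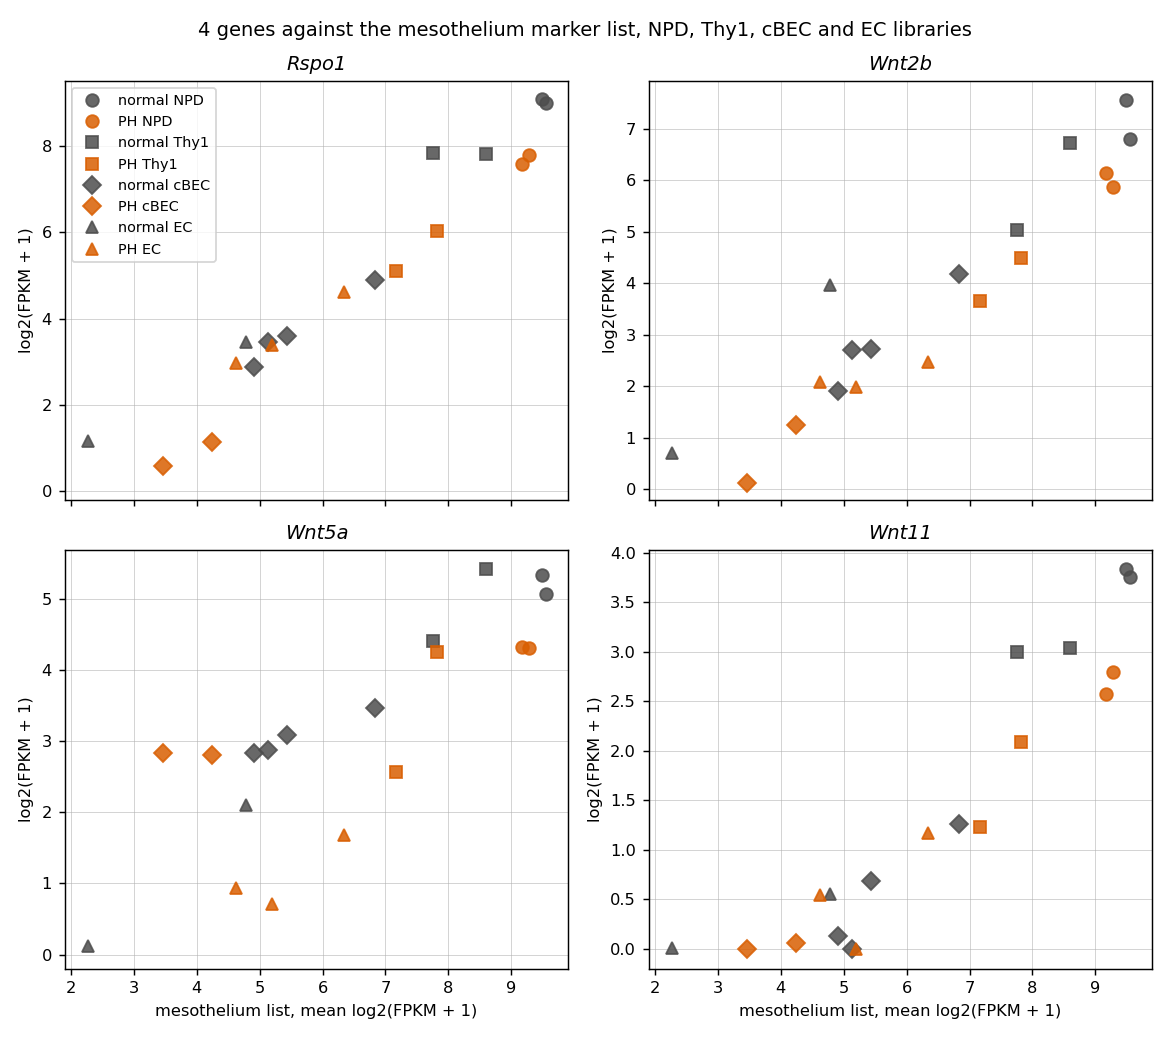
Rspo1, Wnt2b, Wnt5a and Wnt11 as log2(FPKM + 1) (vertical axes) against the mean log2(FPKM + 1) of the mesothelium list (horizontal axis) in 19 libraries; shapes give the sort (circle NPD, square Thy1, diamond cBEC, triangle EC), grey is normal and orange PH. The NPD libraries lie at 9.17 to 9.55 on the list and the normal ones hold the highest Rspo1, Wnt2b and Wnt11 values.

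In the Thy1 sort the members moved in opposite directions by gene, with no call. Wnt2 was at 23.9 and 78.1 FPKM in normal and at 131 and 230 FPKM after PH. Wnt9b was at 8.22 and 96.0 FPKM and then at 170 and 266 FPKM, and Rspo3 at 27.6 and 294 FPKM and then at 299 and 407 FPKM. In each of the 3 genes normal Thy1 1 was the lowest library and both PH libraries lay above both normal ones. Rspo1, Wnt2b, Wnt5a and Wnt11 had both PH libraries below both normal ones, with Rspo1 giving the smallest adjusted p of these members (-2.27 ± 0.39, SE, adjusted p = 0.13). The share of all genes without overlap in Thy1 is not given here, so these separations have no background beside them. Of 8 members tested 0 were called by limma, where 0.00747% of all genes were called. In a single fit of all 20 groups 5 were called, Wnt9b higher (adjusted p = 0.00963) and Wnt5a (0.017), Wnt2b (0.0442), Wnt11 (0.000398) and Rspo1 (0.00179) lower. The share of all genes called in that fit is not given here.

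Marker lists in Thy1 libraries moved alongside. Endothelial markers, 6 of 6 detected in every library, summed to 1046 to 1320 FPKM in normal and 1448 to 2777 FPKM in PH Thy1, and central-vein markers to 550 to 2123 FPKM and 1793 to 3748 FPKM. Normal Thy1 1, the library with the least Wnt2, Wnt9b and Rspo3, was also the lowest on the central-vein list, at 5.01 against 7.30 in normal Thy1 2. Mesothelium markers summed to 1947 to 3143 FPKM in normal and 1152 to 1762 FPKM in PH libraries. The list for the sort itself (Thy1, Eln, Gli1, Cd34, Fbln2, Mfap4), with 6 of 6 detected in every library, was lower in both PH libraries, at a summed 1068 to 1299 FPKM in normal and 602 to 1043 FPKM in PH. Stellate markers went from 2484 to 3101 FPKM to 379.9 to 1724 FPKM and Kupffer markers from 33.6 to 83.2 FPKM to 1.17 to 5.45 FPKM. Their part in the Thy1 values was not tested.

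Wnt4 was high in both biliary sorts and was not called there. Normal BEC libraries held 49.9, 48.2, 45.5 and 43.3 FPKM and PH BEC libraries 47.2 and 47.3 FPKM, with a change of 0.02 ± 0.15 (SE, adjusted p = 0.976). Normal cBEC libraries held 37.3, 46.6, 35.0 and 33.0 FPKM and PH cBEC libraries 47.3 and 34.6 FPKM (0.10 ± 0.20, adjusted p = 0.881). Every BEC and cBEC library lay between 33.0 and 49.9 FPKM. In normal liver BEC, HSC and cBEC were the top sources of Wnt4 and overlapped in order, and after PH both NPD libraries lay above every BEC library.

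Other members were low in biliary sorts and none was called. In BEC 0 of 5 tested members were called, where 1.81% of all genes were called by limma. Rspo3 there was at 1.28, 1.79, 1.64 and 1.22 FPKM in normal and 0.180 and 0.0698 FPKM in PH libraries (-1.14 ± 0.25, SE, adjusted p = 0.067), and a pseudocount of 0.1 called it (0.0294). Both PH libraries were under 1 FPKM, so Rspo3 passed the filter only through normal BEC, which fixed its direction in advance. LSEC markers in BEC summed to 89.6 to 335 FPKM in normal and 9.31 to 12.7 FPKM in PH libraries. In cBEC 0 of 7 were called, where 0.0681% of all genes were. The members of smallest p there were Rspo1, at 28.9, 6.36, 9.92 and 11.1 FPKM in normal and 1.21 and 0.487 FPKM in PH libraries (-2.85 ± 0.52, adjusted p = 0.183), and Wnt2b (-2.19 ± 0.62, adjusted p = 0.37). Without normal cBEC 1, which carried the most mesothelium markers of its group (1841 FPKM summed), Rspo1 was called (-2.45, adjusted p = 0.0267), and a single fit of all 20 groups called both (4.89e-05 and 0.0102).

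Genes with the most similar patterns over the 20 group means differed between the members. Wnt2 was followed most closely by Kit (r = 0.958) and Lyve1 (0.945), and Wnt9b by Lhx6 (0.969), Mmp28 (0.967) and Sele (0.948). Rspo3 was followed by Plvap (0.953), Calcrl (0.939) and Apold1 (0.938). Kit and Lhx6 are also on the central-vein list, and Lyve1, a hyaluronan receptor, is on the LSEC list. For the NPD genes the closest were Fmod (0.996), Chst4 (0.994) and Myl7 (0.993) for Rspo1, Cybrd1 (0.991), Lvrn (0.990) and Rspo1 itself (0.989) for Wnt2b, and Prss12 (0.996), Dnajc6 (0.993) and Chrdl1 (0.992) for Wnt11. Wnt5a was followed by Ltbp3 (0.965), Twsg1 (0.962) and Syne2 (0.955), and Wnt4 by Dzip1l (0.980), Gspt2 (0.976) and Zc3hav1l (0.971). These correlations describe 20 points and carry no test.

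Of the 13 other Wnt ligand genes, all in the table, the highest group means were those of Wnt9a (53.5 FPKM), Wnt7b (17.8 FPKM) and Wnt5b (11.8 FPKM), each in normal NPD. None of the 13 was called after PH in any population, and in LSEC, HSC, KC and blood none passed the filter. Wls, the carrier that brings Wnt proteins to the cell surface, was highest in normal NPD (190 FPKM) and was called lower after PH in BEC (from 25.1 to 11.6 FPKM, -1.05, adjusted p = 0.021, where 1.81% of all genes were called) and KC (from 55.5 to 38.1 FPKM, -0.53, adjusted p = 0.0178). Porcn, the acyltransferase that modifies Wnt proteins, was called lower in KC (-1.36, adjusted p = 0.00956) and higher in blood (1.02, adjusted p = 0.0422). Calls were common in both of those sorts, 36.8% of all genes in KC and 64.0% in blood, and PH blood carried the Kupffer and LSEC markers given above.

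Among 14 secreted antagonists, Frzb (secreted Frizzled-related protein 3) had the highest mean, 269 FPKM in PH HSC. Antagonists were called after PH in NPD (Sfrp1 lower, from 10.7 to 2.28 FPKM, adjusted p = 0.0171, 1 of 5 tested), KC (Kremen1 and Dkk3 lower, 2 of 3) and blood (Frzb and Kremen1 higher and Kremen2 lower, 3 of 4). The shares of all genes called were 15.2%, 36.8% and 64.0% in these sorts. Of 15 Wnt receptors, 8 of 9 tested were higher in blood, led by Lrp5, Ryk and Fzd7, where 24.3% of all genes were called higher. In KC 4 of 9 were lower, led by Fzd6, Fzd4 and Lrp6, where 20.1% of all genes were called lower. In NPD Fzd7 was lower (from 45.9 to 20.7 FPKM, adjusted p = 0.0408) and Ror2 higher (from 1.25 to 4.50 FPKM, adjusted p = 0.0346), 2 of 14 tested. In HC Fzd8 was lower (from 3.54 to 0.992 FPKM, adjusted p = 0.00625), 1 of 9, where 6.19% of all genes were called. Between PH and normal libraries, the 1 call among the 5 R-spondin receptor genes was Rnf43, lower in blood (-2.52, adjusted p = 0.00134). Between HSC and LSEC after PH, Znrf3 (1.14, adjusted p = 0.00229) and Lgr4 (1.27, adjusted p = 0.0438) were higher in HSC, 2 of 2 tested, where 35.3% of all genes were called.

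Of 10 target genes, Axin2, a feedback inhibitor induced by beta-catenin, was the 1 of 3 tested that was called in LSEC, higher after PH (from 1.10 to 4.68 FPKM, 1.44 ± 0.18, SE, adjusted p = 0.00278), beside 8.46% of all genes called. In hepatocytes 3 of 5 tested were lower: Glul, glutamine synthetase (from 212 to 51.1 FPKM, adjusted p = 0.0105), Cyp1a2 (from 308 to 78.0 FPKM, adjusted p = 0.0171) and Cyp2e1 (from 2125 to 808 FPKM, adjusted p = 0.0225), all known as pericentral enzymes. There 6.19% of all genes were called. Notum, a secreted Wnt deacylase from the release list, was also lower there (from 10.6 to 4.96 FPKM, adjusted p = 0.0273). In NPD Nkd1 (-1.23, adjusted p = 0.0182) and Glul (-1.12, adjusted p = 0.0472) were lower, 2 of 4 tested, beside 15.2% of all genes called. In KC Nkd1 was lower (from 9.75 to 1.79 FPKM, adjusted p = 0.00382), 1 of 2 tested, beside 36.8%. In blood, beside 64.0%, 4 of 5 were called: Glul (from 7.08 to 258.5 FPKM, adjusted p = 0.000766) and Nkd1 (from 1.75 to 16.6 FPKM, adjusted p = 0.00988) were higher, and the T-cell-expressed factors Lef1 (from 74.2 to 1.41 FPKM, adjusted p = 0.0011) and Tcf7 (from 66.4 to 4.43 FPKM, adjusted p = 0.00197) were lower. In BEC, cBEC, EC, Thy1 and HSC no target was called.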

How the data were processed

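The authors deposited a table of FPKM values, named so by its title, with 1 column per library and 36141 transcript rows for 24478 symbols; 0 other columns of samples were left over. Per the submitters' processing notes, the build was mm9, and CASAVA 1.8.2 and Bowtie 1.0.0 were used, with no role given; the counting tool is not given in the sources used here. Read depth is unknown, so no counting interval is given. Groups follow the sample titles.

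Tests used limma 3.58.1 (R 4.3.3; moderated variances with a trend, robust, two-sided, Benjamini-Hochberg over all genes tested, adjusted p under 0.05) on log2(FPKM + 1), a scale on which the change of low genes is understated. The libraries compared entered each fit, and all 20 groups entered the fits of response differences. Genes needed 1 FPKM in as many libraries as the smaller group. Named genes were all 10 members, the 3 genes with the highest correlation for each member reaching a group mean of 5 FPKM, and the pathway lists' calls. Some genes these rules or the marker lists select are not reported here. Alternatives were a pseudocount of 0.1, no filter, scaling to the upper quartile, 1 fit over every group, the replicate number as a block, summed rows and leaving out each library. The members and lists were chosen with earlier results of these data known. The fits were tested on simulated data. Promoter letters come from RefSeq (GRCm38.p6). Plots used matplotlib 3.10.9 under Python 3.11.15.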

Additional observations from a re-analysis of the deposited data

Results flagged for a closer look

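Rspo3 in normal cBEC 1, at 26.0 FPKM, stood apart from the 3 other normal cBEC libraries (1.95, 0.0425 and 1.19 FPKM) by the size of its gap relative to the group's range. It was the only such value in 15 pairs of gene and larger group examined, where 1 in 20 would give 0.75 such values. Pairs from the same libraries are not independent. The same library held the most Rspo1 (28.9 FPKM), Wnt2b (17.2 FPKM), Wnt9b (5.999 FPKM) and Wnt2 (4.83 FPKM) of its group, with scores of 6.84 on the mesothelium list and 4.80 on the endothelial list.

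The response to PH was called different between sorts, by the test of the difference itself, for 5 pairs of gene and sort. Of all genes, 0.345% were called for EC and 6.26% for HSC. Against LSEC, the EC response was lower for Wnt9b (-3.91) and higher for Wnt4 (1.89). Against LSEC, the HSC response was lower for Wnt2 (-3.06), Wnt9b (-4.23) and Wnt4 (-1.34). Only the Wnt9b difference in HSC kept its call in every alternative. Wnt4 was under 1 FPKM in every LSEC library, so its differences largely restate the EC and HSC changes.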

How the results depend on the processing

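Counts of called members depended on how the spread was estimated. The shares of all genes called in these alternatives are not given here, so the member counts have no background beside them. A single fit of all 20 groups called 2 members in cBEC, 2 in NPD, 1 in EC (Wnt4), 5 in Thy1, 1 in HSC (Wnt4) and 2 between EC and LSEC in normal liver. In EC, Wnt4 had passed the filter only through the PH libraries. A pseudocount of 0.1 called 1 in BEC (Rspo3), 1 in blood, 0 for the EC response and 1 for the HSC response. Rspo3 in BEC had passed the filter only through the normal libraries. With no filter on low values, 2 were called in NPD and 1 for the EC response, and a fit of the 4 compared groups only called 0 for the EC response and 1 for the HSC response. A block on the replicate number called 1 in BEC, 0 in LSEC, 4 in Thy1, 2 in KC, 1 for the EC response and 6 in NPD, with Wnt2 (adjusted p = 0.0293) and Wnt2b (0.0262) added there. It also ended the calls of Wnt2 in the HSC response (0.0562) and of Rspo3 between HSC and LSEC after PH (0.142). For the pairing, deviations of same-numbered libraries correlated at -0.00922, -0.211 and -0.0872 in LSEC, and at -0.628 to 0.45 in HC. In groups of 2 libraries the deviations mirror each other, so this check cannot decide whether the numbers mark pairs. Leaving out 1 library gave 0 to 1 called members in cBEC, 0 to 6 in NPD, 0 to 3 in blood, 0 to 1 in KC and 1 to 3 for the EC response. In NPD and blood each of these fits left 1 library in a group, so their counts rest on single libraries. Of single values, 1 changed sign: the Wnt2 change in HSC, not called, ranged from -3.46 to 0.11, the last without normal HSC 2. The population with the highest mean was unchanged for each of the 8 genes under upper-quartile scaling and under summed rows. Upper-quartile scaling moved the median difference of all genes from 0.02 to 0.16 between EC and LSEC in normal liver and from -0.12 to -0.25 between HSC and LSEC after PH. The cause of these shifts was not tested, and the unknown depth limits values near 0.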
